A study of Bos taurus with 8 samples.

Results

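The miR-10, miR-99, miR-100 and miR-125 families are described here in the mammary gland of heifers of a dairy and a beef breed. Their members were taken by name: every bovine entry of the array whose stem is miR-10a, miR-10b, miR-99a, miR-99b, miR-100, miR-125a or miR-125b, with any arm suffix. This gave 8 of the 763 bovine miRNAs on the array, namely bta-miR-10a, bta-miR-10b, bta-miR-99a-5p, bta-miR-99a-3p, bta-miR-99b, bta-miR-100, bta-miR-125a and bta-miR-125b; the species prefix bta is left out from here on. The rule itself uses names only. The study compared total RNA from mammary tissue of 4 Holstein-Friesian heifers, a breed kept for milk, with that of 4 Limousin heifers, a breed kept for meat. All 8 animals were healthy, not pregnant and collected at slaughter, and their labels state their age as 20 months in one field and 2 years in another. Each of the single-colour Agilent miRNA arrays held RNA of a different animal, given in the labels as a biological replicate. The tissue was whole mammary tissue, so fewer cells of a type and less of a miRNA per cell cannot be told apart.

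A miRNA is a short RNA that guides the silencing complex to messenger RNAs, mostly through the bases near its 5′ end, called the seed. The miR-10, miR-99 and miR-100 miRNAs are related in sequence and are often placed in 1 superfamily, while miR-125 is the vertebrate relative of lin-4, the worm miRNA that times larval development together with let-7. In mammals the genes of miR-10a and miR-10b lie in the HOXB and HOXD clusters of body-axis regulators, and those of miR-99, miR-100 and miR-125 lie beside let-7 genes in shared clusters. In the mammary gland miR-10b is best known from work on breast tumour spread, and miR-125b and miR-99a from work on cell growth and on stem and progenitor cells.

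The probes of the family are shown first, because the members differ by few bases and the arrays read them through short complementary DNA. Each line gives the longest probe of a member, 5′ to 3′ and complementary to the miRNA. Capitals mark the bases that part miR-10a from miR-10b, miR-99a-5p from miR-100, and miR-99b from miR-100.
miR-10a: cacaaattcggAtctacaggg
miR-10b: cacaaattcggTtctacaggg
miR-99a-5p: acaagAtcggatctacgg
miR-100: cacaagTtcggatctacgg
miR-99b: cGcaagGtcggTtcta
miR-99a-3p: acccatagaagcgagc
miR-125a: cacaggttaaagggtc
miR-125b: tcacaagttagggtctc
Counted from 1 at the 5′ end of the first-named probe, miR-10a and miR-10b differed by the substitution A12T over 21 bases, and miR-99a-5p and miR-100 by A6T over 18 aligned bases. The miR-99b probe differed from that of miR-100 by G2A, G7T and T12A over 16 bases, and the miR-10a probe from that of miR-100 by A6G and A18G over 19. The probes of miR-125a and miR-125b had 5 mismatches in their best alignment without gaps, over 16 bases. Members that differ by 1 base, miR-10a with miR-10b and miR-99a-5p with miR-100, can share signal on such probes, so their separate values are uncertain.

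The array annotation places these probes in the bovine build UMD 3.1. The probe of miR-10a was listed at chr19:38549278-38549297 and that of miR-10b at chr2:20797628-20797647. The probe of miR-100 was listed at chr15:33353411-33353428, that of miR-99b at chr18:58014881-58014895 and that of miR-125a at chr18:58015557-58015571. For these 5, which map once, the listed interval is 1 base shorter than the probe. The probes of miR-99a-5p, miR-99a-3p and miR-125b each map to 2 places, those of miR-99a to chromosome 1 and that of miR-125b to chromosomes 1 and 15, so a signal of miR-125b cannot be assigned to either of its genes. In the RefSeq gene table of the later build ARS-UCD2.0, used for names and neighbours only, MIR10A lies within the span of HOXB3 next to HOXB4 and MIR10B within that of HOXD4. On chromosome 1 MIR125B-2, MIRLET7C and MIR99A follow each other within 1 long non-coding RNA gene. On chromosome 15 MIR125B-1, MIRLET7A-2 and MIR100 are neighbours, and on chromosome 18 MIR99B, MIRLET7E and MIR125A are. In the array annotation of chromosome 18 the probe of let-7e starts 165 bases from that of miR-99b, and the probe of miR-125a another 511 bases on. Whether a miRNA gene is exonic or intronic is not given in that table.

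All 8 arrays were read for 45780 spots of 1657 probes, with no saturated spot and with 28.6% to 35.5% of the spots well above background. The deposited file names place every Holstein-Friesian array in row 1 and every Limousin array in row 2 of the slide, and effects of the row cannot be told apart from those of breed. Spot intensities were scaled to the 75th percentile of the probes detected on all arrays, and values are log2 of the scaled signal. Levels of different miRNAs were not set against each other, because each probe has its own response. Holstein-Friesian replicate 2 stood apart on the second principal component of the 270 tested miRNAs, with a score of -6.41 against -0.02 to 2.20 on the other 7 arrays, and results that rest on it are given without it. Precision is limited by having 4 arrays a breed.

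None of the 8 members passed the test of a breed difference. All 8 were well above background on all 8 arrays and were tested together with the other miRNAs (limma, Benjamini-Hochberg adjusted over 270 miRNAs). Of them 0 passed at 0.05, where 41.9% of all tested miRNAs did, 13.7% higher and 28.1% lower in Limousin. At an unadjusted p under 0.05 the count was also 0 of 8, against 50.7% of all tested. The breeds overlapped in all 8 members, while they did not overlap for 36.7% of the tested miRNAs. The median log2 difference, Limousin minus Holstein-Friesian, was -0.07 over the members, from -0.35 for miR-125a to 0.05 for miR-100, and also -0.07 over all tested miRNAs, which ran from -2.43 to 2.40.

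**Figure D1:**
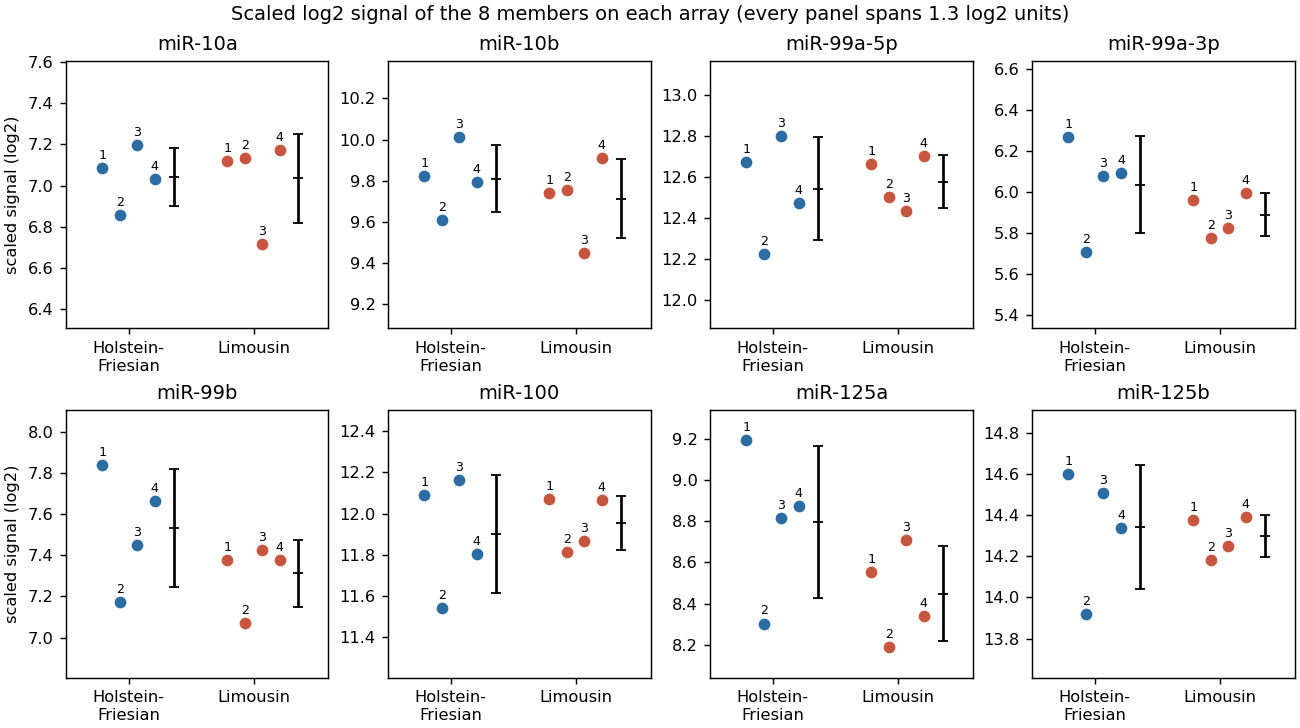
Scaled log2 signal (vertical axis) of each member on each array, with points numbered by replicate, Holstein-Friesian in blue and Limousin in red, and the bar showing mean ± SD of 4 arrays. The breeds overlap in all 8 panels, and Holstein-Friesian replicate 2 is the lowest of the 8 arrays in 4 of them.

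The members of the HOX loci came first. For miR-10a the scaled log2 signal was 7.09, 6.86, 7.20 and 7.03 in Holstein-Friesian replicates 1 to 4 and 7.12, 7.13, 6.71 and 7.17 in Limousin replicates 1 to 4. Both the highest value and the lowest value thus belonged to a replicate 3, of Holstein-Friesian and of Limousin. The means were 7.04 ± 0.14 (SD, n = 4) and 7.03 ± 0.22 (SD, n = 4), a ratio of 0.995 with a 95% confidence interval of 0.807 to 1.23 (limma adjusted p = 0.981).

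For miR-10b, which is known as a driver of invasion in breast tumours, the scaled log2 signal was 9.82, 9.61, 10.01 and 9.80 in Holstein-Friesian and 9.74, 9.75, 9.45 and 9.91 in Limousin. Again Holstein-Friesian replicate 3 was the highest array and Limousin replicate 3 the lowest. The means of 9.81 ± 0.16 (SD, n = 4) and 9.71 ± 0.19 (SD, n = 4) gave a ratio of 0.935 (95% confidence interval 0.760 to 1.15; limma adjusted p = 0.606). The intervals of both miR-10 members therefore leave out a rise above 1.23-fold in Limousin at this scaling.

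In the miR-99 and miR-100 family, whose targets in other tissues include the growth regulator MTOR, miR-99a-5p lay at 12.67, 12.22, 12.80 and 12.47 on the scaled log2 scale in Holstein-Friesian and at 12.66, 12.50, 12.44 and 12.70 in Limousin. The Limousin values lay within the Holstein-Friesian range. The ratio was 1.02 (95% confidence interval 0.822 to 1.28; limma adjusted p = 0.868). Its close relative miR-100 lay at 12.09, 11.54, 12.16 and 11.80 in Holstein-Friesian and at 12.07, 11.81, 11.87 and 12.07 in Limousin. Here too Limousin fell inside the Holstein-Friesian range, and the ratio was 1.04 (0.820 to 1.31, limma adjusted p = 0.804). Without Holstein-Friesian replicate 2, the lowest array for both, the log2 differences of miR-99a-5p and miR-100 turned negative. They were then -0.071 and -0.066 (limma adjusted p = 0.632 and 0.670).

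The other arm of the miR-99a hairpin, miR-99a-3p, lay at 6.27, 5.71, 6.08 and 6.09 in Holstein-Friesian and at 5.96, 5.78, 5.82 and 5.99 in Limousin. Apart from Holstein-Friesian replicate 2, the lowest array, the Holstein-Friesian values were above every Limousin value. The log2 difference was -0.15 (SE 0.14), a ratio of 0.904 (0.733 to 1.11, limma adjusted p = 0.434). Without Holstein-Friesian replicate 2 it was -0.26 (limma adjusted p = 0.0747). It shrank to -0.069 without Holstein-Friesian replicate 1, the highest array (limma adjusted p = 0.759).

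The third relative, miR-99b, comes from the chromosome 18 cluster and lay at 7.84, 7.17, 7.45 and 7.67 in Holstein-Friesian and at 7.38, 7.07, 7.42 and 7.38 in Limousin. In Limousin replicates 1, 3 and 4 lay close together, with replicate 2 apart and lowest of all arrays. The log2 difference was -0.22 (SE 0.16), a ratio of 0.859 (0.673 to 1.09; limma adjusted p = 0.303). Without Holstein-Friesian replicate 2 it was -0.34 (limma adjusted p = 0.0550). It shrank to -0.12 without Holstein-Friesian replicate 1, the highest array (limma adjusted p = 0.626).

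The miR-125 members had the largest and one of the smallest differences of the group. For miR-125a, whose seed is that of lin-4, the scaled log2 signal was 9.19, 8.30, 8.82 and 8.87 in Holstein-Friesian and 8.55, 8.19, 8.71 and 8.34 in Limousin. Holstein-Friesian replicates 1, 3 and 4 were above all Limousin arrays, and Holstein-Friesian replicate 2 was below 3 of them. The means of 8.80 ± 0.37 (SD, n = 4) and 8.45 ± 0.23 (SD, n = 4) differed by -0.35 (SE 0.19), a ratio of 0.786 (95% confidence interval 0.585 to 1.05; limma adjusted p = 0.175). Without Holstein-Friesian replicate 2 the difference was -0.51 and passed (limma adjusted p = 0.0174). It was then the only member of the 8 that passed, where 52.6% of the tested miRNAs did, 20.7% higher and 31.9% lower in Limousin. The difference shrank to -0.22 without Holstein-Friesian replicate 1, the highest array (limma adjusted p = 0.401).

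For miR-125b, transcribed from genes on chromosomes 1 and 15, the scaled log2 signal was 14.60, 13.92, 14.51 and 14.34 in Holstein-Friesian and 14.38, 14.18, 14.25 and 14.39 in Limousin. All Limousin arrays lay inside the Holstein-Friesian range, which was set at its low end by replicate 2. The ratio was 0.972 (95% confidence interval 0.767 to 1.23, limma adjusted p = 0.853). Without Holstein-Friesian replicate 2 the log2 difference was -0.18 (limma adjusted p = 0.210).

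These values rest on 30 spots per probe, and each member has 2 probes that share nearly all their sequence. Among the spots of the probe used, the SD of the log2 signal, as a median over arrays, was 0.076 to 0.12. The SD between the 4 animals was 0.14 to 0.37 in Holstein-Friesian and 0.10 to 0.23 in Limousin. In Holstein-Friesian the spread between animals was thus above the spread between spots for all 8 members. The Holstein-Friesian SD was the larger for 6 of the 8 members, and for 198 of the 270 tested miRNAs. The 2 probes of a member gave breed differences of the same sign for all 8 members. They were within 0.08 of each other on the log2 scale. For miR-125a the shorter probe gave -0.33 and the longer -0.35, although the shorter was detected on 7 of 8 arrays. The shorter probe of miR-99a-3p was detected on 5.

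The members did not vary over the arrays in the same way. Likeness was measured as the root mean square distance between the log2 profiles of 2 miRNAs over the 8 arrays, each set to a mean of 0. It was 0.044 for miR-99a-5p with miR-100 and 0.064 for miR-10a with miR-10b, the closest 2 of the 28 member pairs, and these are also the pairs whose probes differ by 1 base. Next came miR-125b, at 0.078 from miR-100, 0.080 from miR-99a-3p and 0.090 from miR-99a-5p. The chromosome 18 members miR-99b and miR-125a were 0.13 apart. The member nearest to miR-125a was miR-99b, but the member nearest to miR-99b was miR-99a-3p of chromosome 1, at 0.11. The greatest distance was 0.35, between miR-10a and miR-125a. The median was 0.16 over the member pairs and 0.38 over all pairs of miRNAs detected on every array, which ran up to 2.49. Such a distance is smaller where both profiles vary little. The members' own root mean square spread around their means ran from 0.16 for miR-10a to 0.32 for miR-125a. The lower median of the members is therefore not read as shared variation. These distances are a description, and arrays that share a position, a scan and a scaling were not separated from animals.

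**Figure D2:**
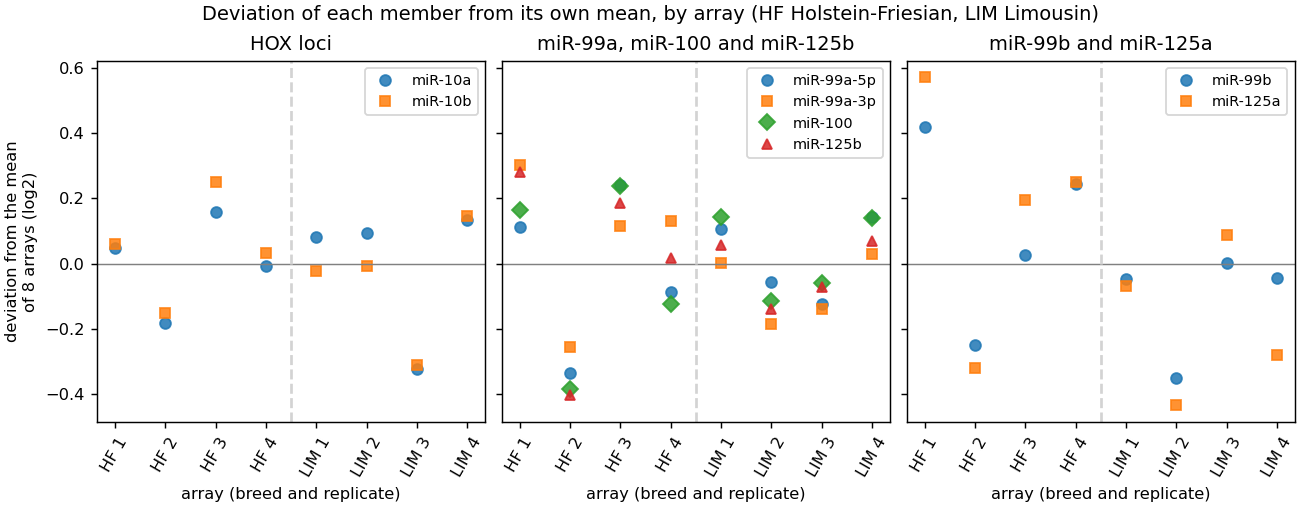
Deviation of each member from its own mean over 8 arrays (log2, vertical axis) by array. The miR-10 members were lowest on Limousin replicate 3, the 4 miRNAs in the middle panel on Holstein-Friesian replicate 2, and miR-99b and miR-125a were highest on Holstein-Friesian replicate 1 and lowest on Limousin replicate 2.

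The lowest and the highest arrays divided the members in different ways. Holstein-Friesian replicate 2 was the lowest array for 4 members, miR-99a-5p, miR-99a-3p, miR-100 and miR-125b. Limousin replicate 3 was lowest for miR-10a and miR-10b, and Limousin replicate 2 for miR-99b and miR-125a. The highest array was Holstein-Friesian replicate 3 for miR-10a, miR-10b, miR-99a-5p and miR-100, and Holstein-Friesian replicate 1 for the other 4. Among the 224 other miRNAs detected on every array, the profile nearest to that of miR-10a was miR-200b, an epithelial miRNA, at a distance of 0.087, and miR-200b was also nearest to miR-10b, at 0.079. The nearest to miR-99a-5p was miR-195 (0.049), to miR-100 miR-374b (0.060), to miR-99a-3p miR-140 (0.055), to miR-125b miR-140 (0.081), to miR-99b miR-197 (0.094) and to miR-125a miR-2332 (0.12). None of these 6 neighbours, for which a small difference was part of the likeness, passed the breed test (limma adjusted p from 0.179 for miR-197 to 0.912 for miR-195).

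Ratios within an array ask whether related miRNAs changed unequally between the breeds, and they do not depend on the scaling between arrays. For 13 pairs of paralogs and cluster partners, the log2 ratio of each array was compared between the breeds with a two-sided exact permutation test over the 8 arrays, whose smallest possible p is 0.0286. With that smallest p, a pair could not pass Benjamini-Hochberg adjustment over the 13 pairs unless several other pairs also had low p. The adjusted outcome therefore decides little for a single pair. After the adjustment 0 passed at 0.05, and 1 pair had an unadjusted p below 0.05. That pair was miR-10a with miR-10b. Its log2 ratio was -2.74, -2.76, -2.82 and -2.77 in Holstein-Friesian and -2.62, -2.62, -2.74 and -2.74 in Limousin. The breeds did not overlap, but the gap between them was under 0.001. The ratio was 1.06-fold higher in Limousin, a difference of 0.09 (exact permutation p = 0.0286, adjusted p = 0.248), and it turned to -0.13 with the normexp background and to -0.11 with no background correction.

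The ratio of miR-99a-5p to miR-100 differed by -0.02 between the breeds (exact permutation p = 0.600, adjusted p = 0.600), with differences between single Limousin and Holstein-Friesian arrays from -0.11 to 0.11. The ratio of miR-125a to miR-125b was lower in Limousin on average, by 0.808-fold (log2 difference -0.31; exact permutation p = 0.0857, adjusted p = 0.248). The chromosome 15 partners miR-100 and miR-125b differed by 0.09 (exact permutation p = 0.143, adjusted p = 0.265), and the chromosome 1 partners miR-99a-5p and miR-125b by 0.08 (exact permutation p = 0.257, adjusted p = 0.334). None of these 4 differences passed against the spread between arrays.

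On chromosome 18 the partner let-7e rose in Limousin, while neither member of its cluster passed. Its scaled log2 signal was 9.69, 9.83, 9.80 and 9.82 in Holstein-Friesian and 10.18, 10.14, 10.001 and 10.33 in Limousin, with no overlap. The fold change was 1.299 (95% confidence interval 1.097 to 1.54; limma adjusted p = 0.0208), a call that ended without Holstein-Friesian replicate 1 or 4 or without Limousin replicate 1 or 4 (limma adjusted p from 0.0530 to 0.0656) and after the GC and length correction (0.365). The let-7e probe differs from that of let-7a-5p by 1 base, so both can share signal and the separate value of let-7e is uncertain. Holstein-Friesian replicate 1, the lowest array for let-7e, was the highest for miR-99b and miR-125a. The log2 ratio of let-7e to miR-125a was 0.50, 1.53, 0.98 and 0.95 in Holstein-Friesian and 1.63, 1.95, 1.29 and 1.99 in Limousin, a difference of 0.73 (exact permutation p = 0.0571, adjusted p = 0.248). The ratio of miR-99b to let-7e differed by -0.60 (exact permutation p = 0.0571, adjusted p = 0.248). After the GC and length correction these differences were 0.39 and -0.24 (exact permutation, adjusted p = 0.464 for both). Without Holstein-Friesian replicate 2 they were 0.91 and -0.73, and without Holstein-Friesian replicate 1 they were 0.56 and -0.46. Between miR-99b and miR-125a the ratio differed by 0.13 (exact permutation p = 0.171, adjusted p = 0.279). Over the 8 arrays the profiles of miR-99b and let-7e lay 0.39 apart and those of let-7e and miR-125a 0.49. An exact test that misses the threshold with 4 arrays against 4 does not show that the ratios were equal.

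**Figure D3:**
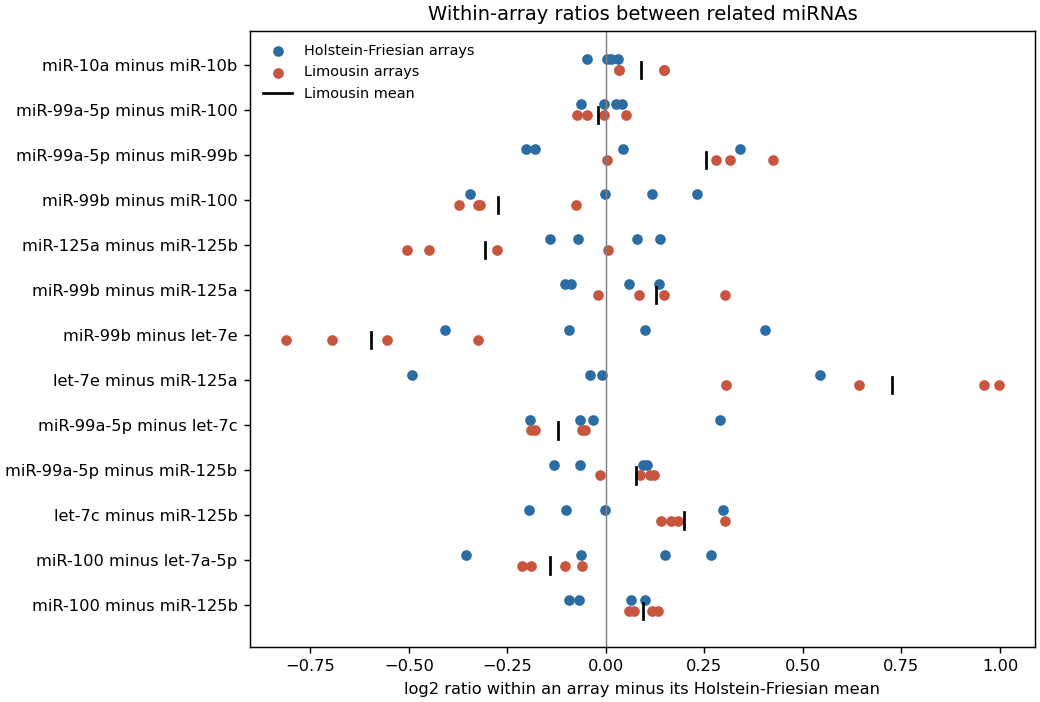
Log2 ratio within each array, minus the mean of the Holstein-Friesian arrays (horizontal axis), for 13 pairs of miRNAs, with 4 Holstein-Friesian arrays in blue, 4 Limousin arrays in red and the Limousin mean as a bar. The greatest shifts are those of let-7e minus miR-125a (0.73) and miR-99b minus let-7e (-0.60), and 0 of the 13 pairs passed after adjustment; with the GC and length correction these shifts were 0.39 and -0.24.

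The array holds 4 entries of let-7a, let-7c and let-7e. Of these 1 rose, let-7e, and 3 did not pass: let-7a-5p at a log2 difference of 0.20, let-7c at 0.16 and let-7a-3p at -0.10 (limma adjusted p = 0.179, 0.329 and 0.719). Both let-7a-5p and let-7c passed in the deposited table, at 0.47 and 0.42 (limma adjusted p = 0.00734 and 0.0102), and with the 75th percentile over all probes, at 0.53 and 0.49 (0.00532 and 0.00786). With quantile normalization let-7c passed at 0.42 (limma adjusted p = 0.00898), and without scaling both passed at 1.05 and 1.01 (0.00144 and 0.0021). The entry let-7a-3p was detected on 3 Holstein-Friesian and 4 Limousin arrays. It passed as lower after the GC and length correction, at -0.60 (limma adjusted p = 0.0230), and as higher without scaling, at 0.75 (0.0184). The breeds did not overlap for let-7a-5p, at 13.84 to 13.92 in Holstein-Friesian and 13.95 to 14.25 in Limousin. Its probe maps to 6 places, so its signal is not that of the miR-100 cluster alone. The probes of let-7c and let-7e each differ from that of let-7a-5p by 1 base, so their separate values are uncertain. The ratio of miR-100 to let-7a-5p differed by -0.14, that of miR-99a-5p to let-7c by -0.12 and that of let-7c to miR-125b by 0.20 (exact permutation p = 0.371, 0.371 and 0.114; adjusted p = 0.402, 0.402 and 0.248). Among the 6 other entries of the let-7 family 1 rose, let-7i, and 5 did not pass, with log2 differences from 0.09 to 0.70, where 13.7% of all tested miRNAs were higher. After the GC and length correction the call of let-7i ended, at 0.24 (limma adjusted p = 0.128).

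Of the other miRNAs of the HOX loci, miR-196a, which lies in HOX clusters and represses HOX messages, was tested. Its scaled log2 signal was 5.63, 6.26, 5.98 and 5.96 in Holstein-Friesian and 6.21, 6.26, 6.24 and 6.86 in Limousin. Holstein-Friesian replicate 2 lay within the Limousin range. The log2 difference was 0.44 (SE 0.18; limma adjusted p = 0.0761), and -0.14 after the GC and length correction (0.419). It passed without Holstein-Friesian replicate 2, at 0.54 (limma adjusted p = 0.0249), with quantile normalization, at 0.65 (0.0214), with the 75th percentile over all probes, at 0.77 (0.00652), and without scaling, at 1.29 (0.000145). The value also depended on the probe. With the mean log2 of all its probes it was 0.19 (limma adjusted p = 0.464), and with their sum 0.28 (0.250). The entries miR-196b and miR-615 were not well above background on any array.

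The sign of most members depended on the scaling. The Limousin arrays were brighter, and without scaling the median log2 difference of all 270 tested miRNAs was 0.785. On that scale 7 of the 8 members were higher in Limousin, with log2 differences from 0.63 for miR-99b to 0.91 for miR-100, and miR-125a was at 0.51 (limma adjusted p = 0.118). Of all tested miRNAs 64.8% passed on that scale, 64.1% higher and 0.741% lower, so 7 of 8 members is read against a background that is itself mostly higher. With the 75th percentile taken over all probes, 0 of 8 members passed and their log2 differences ran from -0.02 for miR-125a to 0.38 for miR-100. The split of all calls was then 104 higher and 30 lower, against 37 and 76 with the scaling used here.

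Probe length and base composition moved with the breed difference over the whole array. The members' probes ran from 16 bases for miR-99a-3p, miR-99b and miR-125a to 21 for the miR-10 pair. Their GC content ran from 47.06% to 56.25%, and other tested miRNAs lay outside both spans. Among all tested miRNAs the median log2 difference was 0.27 for the 53 with a probe of 20 bases or more and -0.17 for the other 217. Of the 18 other miRNAs with a probe of 21 bases, 3 rose and 0 fell, with a median of 0.26, where miR-10a was at -0.0072 and miR-10b at -0.10. Of the 36 others with 16 bases, 3 rose and 11 fell, with a median of -0.18, where miR-99a-3p, miR-99b and miR-125a lay at -0.15, -0.22 and -0.35.

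With a linear correction of each array for GC content and length of the probes, 2 of the 8 members passed, both lower in Limousin, against 28.9% of all tested miRNAs, 9.63% higher and 19.3% lower. These were miR-10a at -0.45 and miR-10b at -0.54 (limma adjusted p = 0.0200 and 0.00947). The other 6 lay between -0.28 for miR-125a and -0.05 for miR-99a-3p and did not pass. The part of base composition and probe length in the values without this correction was not tested, and the miR-10 calls are present only with it among the alternatives that keep the scaling.

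Background handling touched other members. With the normexp model of background 2 of the 8 passed, miR-99a-3p and miR-99b, both lower in Limousin, against 63.7% of all tested miRNAs, 9.63% higher and 54.1% lower. With no background correction the same 2 members passed, also lower, against 63% of all, 10% higher and 53% lower.

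**Figure D4:**
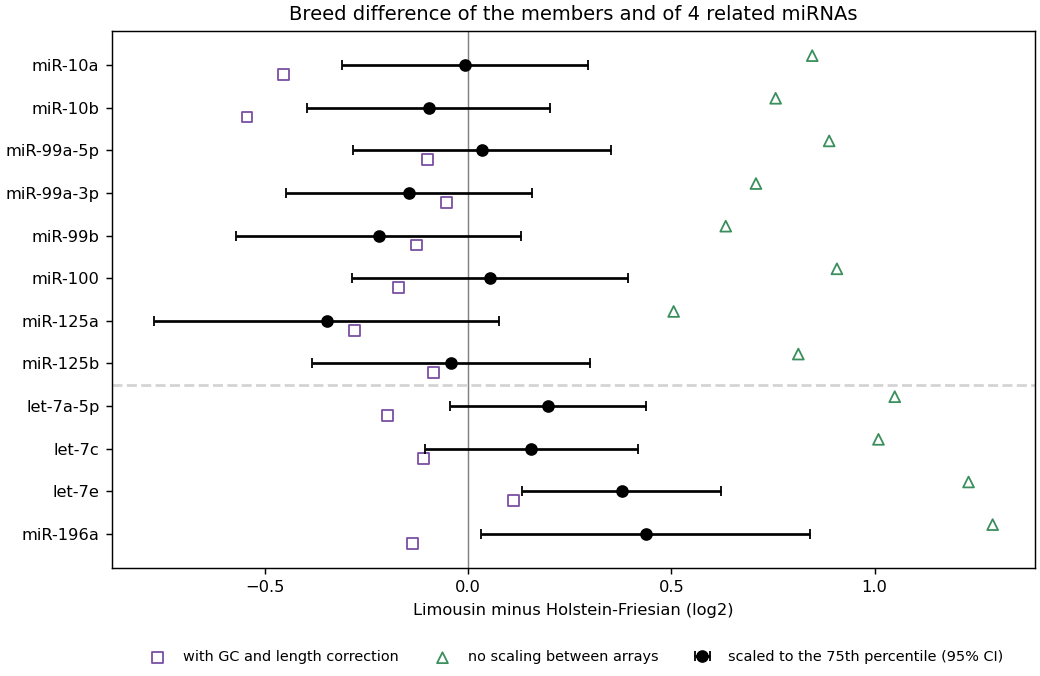
Breed difference, Limousin minus Holstein-Friesian (log2, horizontal axis), of the 8 members and 4 related miRNAs. Black points with 95% confidence intervals show the scaled signals, squares the values after the GC and length correction, and triangles those without scaling; the intervals of all 8 members include 0.

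**Figure D5:**
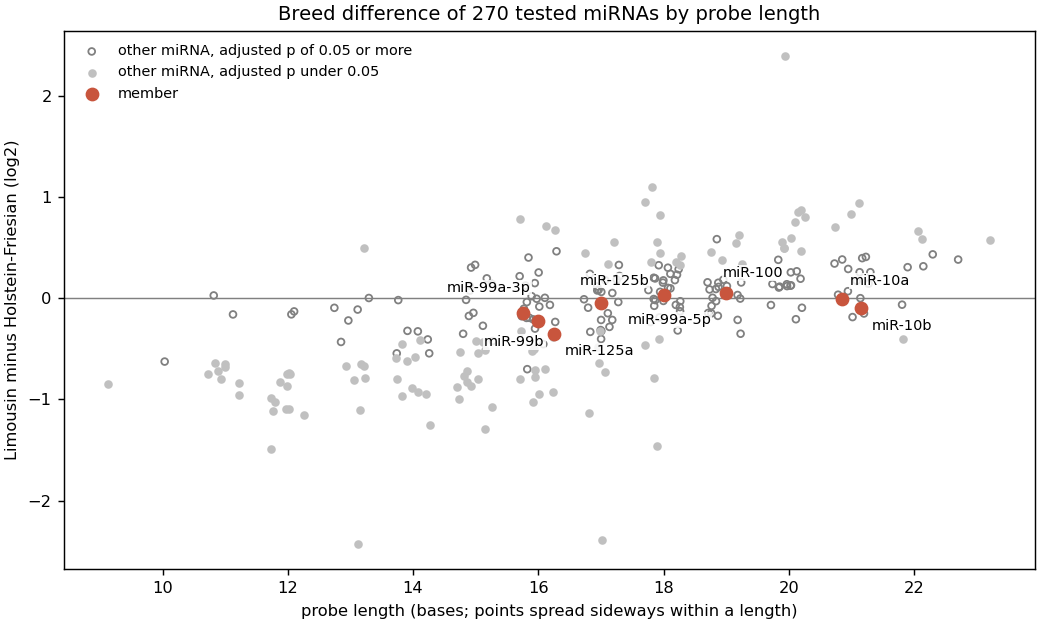
Breed difference (log2, vertical axis) of the 270 tested miRNAs against the length of their probe in bases (horizontal axis), with filled grey points past an adjusted p of 0.05, open points not past it, and the 8 members in red. The members lie between -0.35 and 0.05 at probe lengths from 16 to 21 bases.

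The deposited value table holds log2 signals on another scale, in which the 75th percentile of each column lies near 0. There miR-10a had 0.58, 0.45, 0.75 and 0.57 in Holstein-Friesian and 0.94, 0.97, 0.53 and 0.96 in Limousin, a difference of 0.26 (limma adjusted p = 0.123). The greatest differences of members in that table were those of miR-100, 0.33, and miR-99a-5p, 0.31 (limma adjusted p = 0.0850 and 0.0747). The lowest was that of miR-125a, -0.07. None of the 8 passed, although 5 of them, miR-10a, miR-10b, miR-99a-3p, miR-99b and miR-125b, had the opposite sign from the scaled spot signals.

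Marker miRNAs of the tissue were read on the same arrays, where 13.7% of all tested miRNAs were higher and 28.1% lower in Limousin. All 7 epithelial markers on the array were tested and 6 were detected on every array. The log2 of the summed scaled signals of the 7 was 14.12 to 14.29 in Holstein-Friesian and 14.20 to 14.335 in Limousin. For this list and those below, signals were summed before the log2 was taken. Such a sum weighs the brightest probes most and is set only against the same sum in the other breed. Of the 6 detected on every array 0 passed (limma adjusted p from 0.227 to 0.828), and 0 had an unadjusted p under 0.05. The seventh, miR-375, was detected on 0 Holstein-Friesian and 4 Limousin arrays, so it entered the test only through the breed where it was higher and its difference is given no weight. All 6 stromal and contractile markers were detected on every array, and 3 of them rose, the entries miR-199a-3p, miR-199a-5p and miR-199b, with a summed signal of 13.27 to 13.37 and 13.34 to 13.59. All 3 calls ended after the GC and length correction (limma adjusted p = 0.465, 0.112 and 0.901). In the same list miR-145 had a log2 difference of -0.23 (limma adjusted p = 0.0920), and with that correction it passed at -0.37 (0.0171). Of the 5 leukocyte markers 4 were tested, and miR-142-3p was detected on no array. Of the tested, 2 rose, miR-155 and miR-142-5p. The others, miR-223 at -0.15 and miR-150 at 0.022 (limma adjusted p = 0.931 for miR-150), did not pass. Once GC content and length were corrected for, miR-142-5p no longer passed (limma adjusted p = 0.342) and miR-155 still did (0.00254). The summed leukocyte signal was 10.003 to 10.59 in Holstein-Friesian and 10.53 to 10.89 in Limousin. The endothelial pair did not pass (11.42 to 11.78 and 11.64 to 11.97). Erythroid miR-451 did not pass, with miR-144 and miR-486 detected on no array, and its level ran from 4.85 to 7.07 in Holstein-Friesian and from 4.96 to 5.65 in Limousin. Of the 4 skeletal muscle markers, miR-206 was detected on no array, miR-133a on 1 and miR-133b on 3, and miR-1, detected on 2 Holstein-Friesian and 4 Limousin arrays, did not pass (levels 4.32 to 5.09 and 4.17 to 5.55). The liver marker miR-122 and all 5 entries of the neural miR-9 and miR-124 were detected on no array. The part of these cell types in the values of the members was not tested.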

How the data were processed

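Per the labels, each of 8 arrays received Cyanine 3-pCp-labelled product of 100 ng of total RNA from 1 animal. Per the file headers, the authors' scanner software (Agilent Feature Extraction 10.10.1.1) wrote spot intensities corrected for a spatially fitted background, with no normalization between arrays. The flags for spots well above background are also per the file headers. The authors' deposited log2 value table equals log2 of the software's total signal per miRNA minus a constant per array.

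Control and outlier spots were left out, spots of a probe averaged, and signals scaled to the 75th percentile of the 429 probes detected on all arrays (over 50% of spots well above background), floored at 1 and put on the log2 scale. A miRNA was represented by its brightest probe and tested where detected on all 4 arrays of a breed. The breed fit used limma 3.58.1 (lmFit, eBayes; R 4.3.3) with a threshold of 0.05; ratios used exact permutation tests in scipy 1.17.1. Fit and test code was checked on simulated data. The rule named every member, the let-7a, let-7c and let-7e partners, miR-196a, miR-196b and miR-615, and the nearest profile of each member; markers in the text were named as their list gives them, and let-7i after its value was seen. Members and lists were chosen with earlier results of these data known. Alternatives covered background, scaling, detection, floor, probe summary, variance, block, GC and length, and each array left out.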

Additional observations from a re-analysis of the deposited data

Results flagged for a closer look

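Of the 42 groups of 4 arrays checked (8 members and 13 ratios in each breed), 2 held an array far from the other 3, about as many as the 1 in 20 that chance gives. For miR-10a, Limousin replicate 3 lay at 6.71 against 7.12 to 7.17 in the other Limousin arrays; without it the breed difference was 0.10 (limma adjusted p = 0.560). For miR-99b, Limousin replicate 2 lay at 7.07 against 7.38 to 7.42; without it the difference ran from -0.22 to -0.14 (limma adjusted p = 0.595).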

How the results depend on the processing

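With the processed signals and the scaling used here, 0 of 8 members passed and 113 of 270 miRNAs did. Setting by setting, the members past the threshold and the calls over all miRNAs were as follows. Normexp background gave 2 (miR-99a-3p at -0.45, miR-99b at -0.35) and 172 calls; no background correction gave 2 (the same names, at -0.43 and -0.33) and 170. No scaling gave 7 and 175. The GC and length correction gave 2 and 78; with the replicate block as well, 2 and 61. With the replicate block alone, 0 members and 84 miRNAs passed, and let-7e ended (adjusted p = 0.0823). Leaving out 1 array gave 0 to 1 members, the 1 being miR-125a without Holstein-Friesian replicate 2, and 71 to 142 miRNAs, with 71 without Limousin replicate 1 and 73 without Holstein-Friesian replicate 4. The split of higher and lower calls was 40 and 59 with median scaling, 55 and 43 with quantile normalization, 81 and 28 in the deposited table, 26 and 146 with normexp and 27 and 143 with no background correction.

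Over the 8 members and all alternatives there were 192 values, of which 147 kept direction and side of the threshold, 11 newly passed in the same direction and 34 changed sign. Alternatives in detection, floor, variance and replicate block alone left the log2 difference of every member as it was. Only the adjusted p could change there, so the count of values that kept direction includes values that could not turn. Signs turned as follows, with the cause not tested. Normexp and no background correction turned miR-125b to 0.011 and 0.0028, miR-196a to -0.11 and -0.055, and the ratio of miR-10a to miR-10b to -0.13 and -0.11. The 75th percentile over all probes turned miR-10a to 0.32, miR-10b to 0.23, miR-99a-3p to 0.18, miR-99b to 0.11 and miR-125b to 0.29. Median scaling turned miR-10a to 0.074 and miR-125b to 0.040, and quantile normalization miR-10a to 0.18 and miR-99a-3p to 0.041. No scaling turned miR-10a to 0.85, miR-10b to 0.76, miR-99a-3p to 0.71, miR-99b to 0.63, miR-125a to 0.51 and miR-125b to 0.81. In the deposited table miR-10a was 0.26, miR-10b 0.16, miR-99a-3p 0.12, miR-99b 0.046 and miR-125b 0.22. The GC and length correction, also with the replicate block, turned miR-99a-5p to -0.10, miR-100 to -0.17, let-7a-5p to -0.20, let-7c to -0.11 and miR-196a to -0.14; it turned the ratios miR-99a-5p to miR-100 to 0.072, miR-99b to miR-100 to 0.044, miR-99a-5p to let-7c to 0.010, miR-99a-5p to miR-125b to -0.014, let-7c to miR-125b to -0.024, miR-100 to let-7a-5p to 0.026 and miR-100 to miR-125b to -0.086. With 1 array left out, miR-10a ran from -0.069 to 0.10, miR-125b from -0.18 to 0.045, miR-99a-5p from -0.071 to 0.12, miR-100 from -0.066 to 0.14 and let-7e from 0.32 to 0.43.

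Same-numbered arrays of the 2 breeds correlated at -0.31, -0.25, -0.45 and 0.32 in their deviations from the breed means. Replicate 4 lay above its correlations with other numbers, -0.43 to 0.09, and replicates 1 to 3 did not lie above theirs. With 4 arrays a breed these values do not settle whether the numbers pair animals. In the ratios, 0 of 13 passed under all alternatives with a test. Leaving out 1 array gives no exact p below 0.0571. Pairing by number gives none below 0.125, so no ratio could pass there. Signal over background limits the shorter probes of miR-125a and miR-99a-3p.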
